A study of Rattus norvegicus with 4 samples.

Results

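The cytochrome P450 genes of families 1 to 3 were followed in rat liver as every row of the deposited table whose gene symbol begins with Cyp1, Cyp2 or Cyp3 and a further letter. The rule gave 38 of 32545 rows in 18 subfamilies. Messenger RNA was sequenced from the livers of rats kept under forced activity alone (2 libraries, the control) and of rats kept under forced activity with sleep restriction (2 libraries), so both groups carried the forced activity. The labels give no strain, sex, age or length of either regime, and no statement that the 2 libraries of a group came from separate animals. The p-values therefore measure the spread between these libraries, which may be partly technical.

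P450 enzymes are haem proteins of the endoplasmic reticulum that insert oxygen into lipophilic substrates, with electrons supplied by NADPH-cytochrome P450 reductase and cytochrome b5. Families 1 to 3 handle most drugs and many steroids and fatty acids in hepatocytes. Their genes are known to be controlled by ligand-activated receptors (Ahr for Cyp1a, the constitutive androstane receptor for Cyp2b, the pregnane X receptor for Cyp3a). Liver-enriched factors and, in rats, the sex-specific pattern of growth hormone control them as well.

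The tabulated estimated counts summed to between 508202.6 and 520275.6 per library. The near-equal totals need not be the original depths. Decimals were present at 12886 genes in forced activity 1, at 10854 in forced activity 2 and at 12995 in sleep restriction 1. In sleep restriction 2 just 1 value had one, so the values of that library are not of the same form as those of the other 3, and its total may be its own depth. It also had the fewest genes above 0 (10952, against 11943 to 14105). What this does to the P450 values was not tested beyond leaving each library out. All 6 hepatocyte markers on a fixed list were tested, and albumin (Alb) took 11.6% to 13.6% of counts. Of 8 listed markers of other tissues, 6 were at 0 in every library, namely Ins1, Ins2 (insulin), Acta1, Mb (muscle), Adipoq (adipose) and Umod (kidney). Cela1, from the same list, was not at 0. It held 10.2 to 23.8 counts per library and passed the filter, and the source of its reads was not tested. Prss1 held 0.1 counts, all in forced activity 1. Summed endothelial markers, 9 of whose 12 genes were tested, stood at 243 and 613 CPM in forced activity 1 and 2 and at 596 and 317 CPM in sleep restriction 1 and 2. CPM here is the count per 1e6 counts after TMM scaling. In whole liver, fewer hepatocytes and less RNA per hepatocyte cannot be told apart.

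Reads of the 38 rows together took a slightly larger part of the sleep restriction libraries. The share was 2.43% (exact 95% binomial interval 2.39 to 2.48%) and 2.29% (2.25 to 2.33%) in forced activity 1 and 2. It was 2.76% (2.72 to 2.81%) and 2.59% (2.55 to 2.64%) in sleep restriction 1 and 2. Both sleep restriction libraries lay above both controls. The intervals treat the tabulated counts as reads drawn, which is not known to hold here, and they cover no spread between libraries. In CPM the sum was 24689 ± 2143 under forced activity and 28221 ± 1099 under sleep restriction (SD, n = 2 each), a ratio of 1.14. The ratio was 1.08 without forced activity 2, the library with the lowest sum. The sum is a description of the rows and was not tested.

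The difference in summed CPM came mostly from the Cyp2c and Cyp3a rows. Cyp2c rows, which took 44.1% to 51.7% of the family's reads in each library, added 2182 CPM, or 61.8% of the difference. The Cyp3a rows, 7.36% to 10.9% of the reads, added 1126 CPM (31.9%), and Cyp1a added 488 CPM (13.8%). These parts moved with single libraries. The Cyp2c part was 104.3% without sleep restriction 1, where other subfamilies had negative differences, and 34.6% without sleep restriction 2. The Cyp1a part was 1.45% on dropping sleep restriction 1 and 8.92% on dropping forced activity 1. It was 21.7% when sleep restriction 2 was dropped and 26.1% when forced activity 2 was. The Cyp3a part ran from 26.6% to 45.1%. For Cyp2e1 the difference was -231 CPM and for the Cyp2d rows -70.5 CPM. A share of reads depends on transcript length as well as on transcript number.

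**Figure D1:**
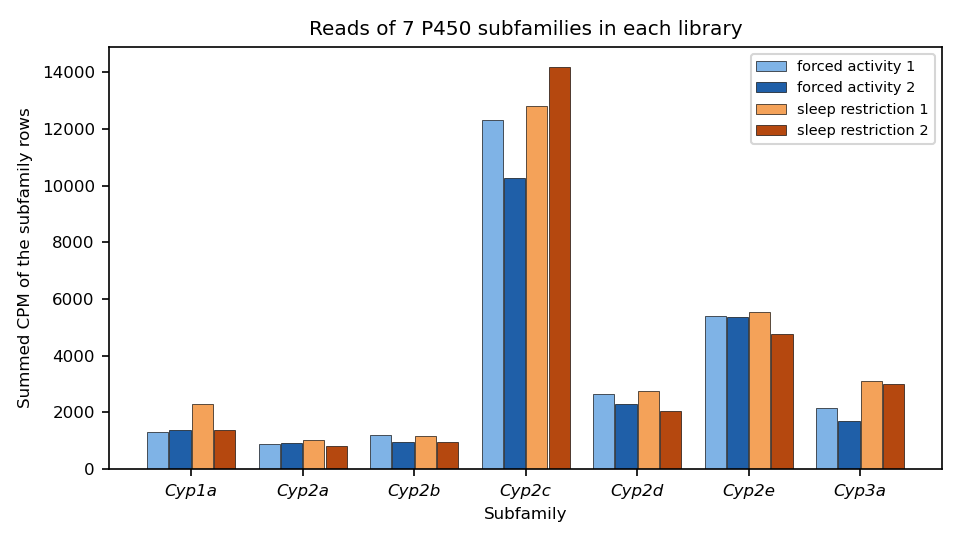
Summed CPM (vertical axis, from 0) of the rows of 7 subfamilies, with 1 bar for each of the 4 libraries. The Cyp3a sums are 2138 and 1705 CPM under forced activity and 3111 and 2985 CPM under sleep restriction, while the Cyp2e bars lie between 4751 and 5540 CPM in all 4 libraries.

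No single row passed the test. Of the 38 rows, 24 in 10 subfamilies passed the filter on low counts, each through libraries of both groups. None reached an adjusted p under 0.05 in edgeR's quasi-likelihood test with Benjamini-Hochberg adjustment over 4986 genes, where 1 gene did (0.0201%). DESeq2 and limma-voom also called 0 members. At an unadjusted p under 0.05, edgeR gave 4 of 24 rows with higher values under sleep restriction (16.7%), against 2.91% of all tested genes. In the lower direction it gave 0 rows, against 1.34%. The 4 rows were Cyp2j10, Cyp3a18, Cyp3a23/3a1 and Cyp3a2, and their adjusted p was 0.978. DESeq2 gave 2 of 30 members at an unadjusted p under 0.05, and 41 of 12703 genes. The edgeR count of members at that level was lower when forced activity 2 or either sleep restriction library was left out. A group of 1 library gives no spread of its own, so those counts were not compared with all genes. The 4 rows share libraries, and 3 of them belong to the Cyp3a subfamily, so their number is not a count of independent results.

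The 2 groups did not overlap at 11 of the 24 rows. Sleep restriction was higher at 9 (37.5%, against 17.2% of all tested genes) and lower at 2 (8.33%, against 15.3%). The log2 change of sleep restriction over forced activity had a median of 0.21 over the tested rows, against 0.0044 over all tested genes, and 15 of 24 rows were positive (52.3% of all genes were). Dropping forced activity 2 gave a median of 0.016, below the 0.031 of all genes tested in that fit. Dropping sleep restriction 1 gave 0.026, against -0.0055 over all genes. Without sleep restriction 2 it was 0.13 against -0.0039, and without forced activity 1 it was 0.25 against 0.0094. Within replicate 1 the median was 0.068 and within replicate 2 it was 0.062. Across the numbers it was 0.24 for sleep restriction 1 over forced activity 2 and 0.079 for sleep restriction 2 over forced activity 1. The tested rows positive in both replicate numbers were 10, or 41.7%, against 28.4% of all genes. Those negative in both were 4, or 16.7%, against 27.6%. The 9 higher rows without overlap are among these 10, and the 2 lower rows among these 4. Lack of overlap fixes their signs, so these shares largely repeat the counts above and are not a further result.

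**Figure D2:**
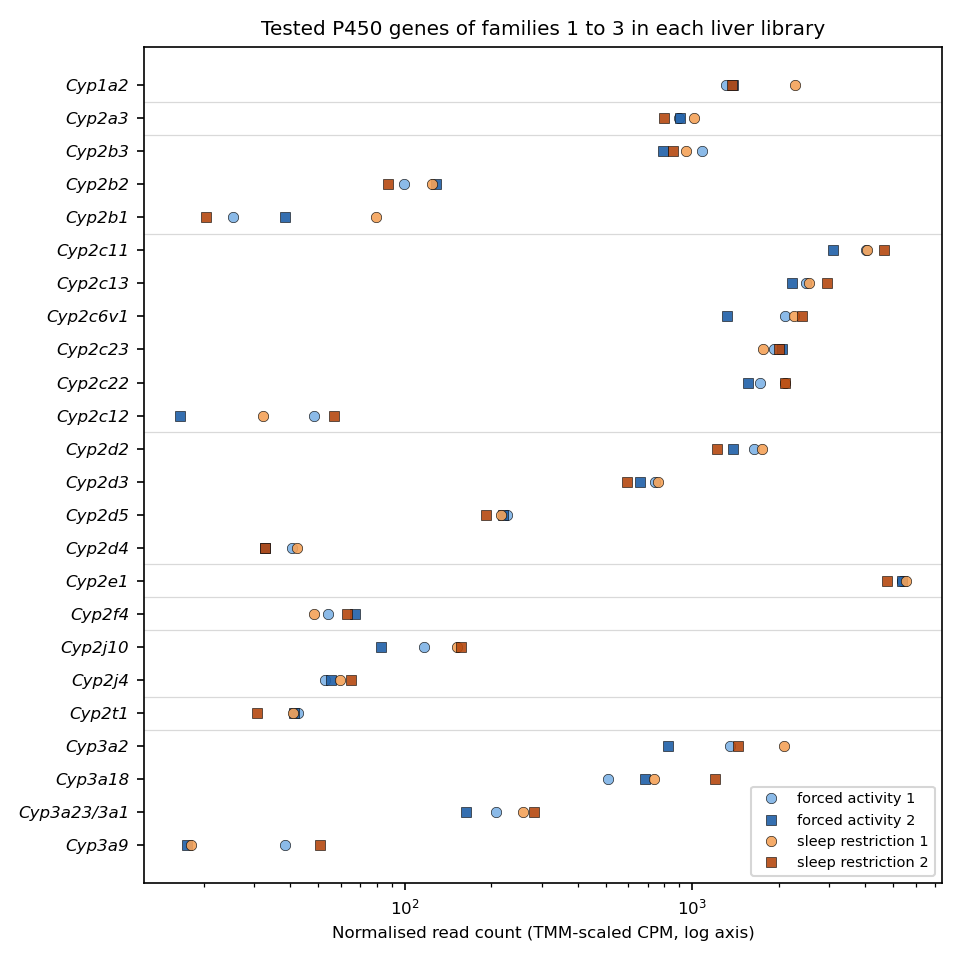
CPM (log axis) of the 24 tested rows, with 1 symbol per library and grey lines between subfamilies. The Cyp2c11 symbols run from 3094 to 4664 CPM and the Cyp3a9 symbols from 17.5 to 50.9 CPM. The 2 sleep restriction symbols lie to the right of both control symbols at 9 rows, Cyp3a2 and Cyp3a18 among them.

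The Cyp3a subfamily, which oxidises steroids and a wide range of drugs, had its 3 more abundant rows above both controls in each sleep restriction library. Such a lack of overlap was found at 17.2% of all tested genes. None of the 3 passed the adjustment. Cyp3a2, a form known to predominate in adult male rats, measured 1360.2 and 826 CPM in forced activity 1 and 2, then 2083 and 1441 CPM in sleep restriction 1 and 2. The highest control and the lowest sleep restriction library were close, and the replicate 1 library was the higher one in each group. Its log2 change was 0.69 (SE 0.27, 95% interval 0.084 to 1.29), with an unadjusted p of 0.029 and an adjusted p of 0.978 in edgeR.

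Cyp3a18, also described as a male-predominant form, measured 508 and 686 CPM under forced activity and 735 and 1201 CPM under sleep restriction. Here replicate 2 was the higher library in both groups, the reverse of Cyp3a2. The log2 change was 0.70 (SE 0.26, 95% interval 0.12 to 1.28, unadjusted p 0.023 in edgeR). Cyp3a23/3a1, a dexamethasone-inducible form, measured 208 and 163 CPM, then 258 and 281 CPM. Its log2 change was 0.54 (SE 0.21, interval 0.070 to 1.01, unadjusted p 0.028 in edgeR).

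All 3 rows were positive within each replicate number, which follows from the lack of overlap between the groups and adds nothing to it. In replicate 1 the log2 changes were 0.61 for Cyp3a2, 0.53 for Cyp3a18 and 0.30 for Cyp3a23/3a1. In replicate 2 they were 0.80, 0.80 and 0.77 in the same order. All 3 also stayed positive with any 1 library left out, a sign likewise fixed by the lack of overlap. Cyp3a2 then ran from 0.37 (without forced activity 2) to 1.09 (without forced activity 1). Cyp3a18 ran from 0.29 (without sleep restriction 2) to 1.0 (without sleep restriction 1), and Cyp3a23/3a1 from 0.37 to 0.72 (without forced activity 2 and 1). The summed Cyp3a ratio was 1.59, and 1.43 without forced activity 2.

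Cyp3a9, which is known from olfactory tissue as well as liver, has 2 rows. The tested row (ENSRNOG00000001379.5) measured 38.4 and 17.5 CPM under forced activity and 18.1 and 50.9 CPM under sleep restriction. Forced activity 2 and sleep restriction 1 were the low libraries, and the log2 change was 0.33 (SE 0.50). Within replicate 1 it was -0.94 and within replicate 2 it was 1.36. The other row (ENSRNOG00000046643.2) held 11, 7.1, 8.5 and 6 counts and was under the filter.

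How reads were divided among Cyp3a rows is uncertain. The Cyp3a2 interval (rn6 chromosome 12, 11663683 to 11677830) lies inside that of the row LOC100910877 (11655402 to 11733136). That row measured 2184 and 2638 CPM, then 1987 and 2413 CPM, with a log2 change of -0.13. The Cyp3a23/3a1 row spans 366 kb, against a median of 21.9 kb over the 38 rows. Whether it takes in reads of other genes was not tested.

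The upstream regions of these 3 Cyp3a genes are shown because their rows did not overlap between groups and because 2 of them are close copies. RefSeq start sites were matched by symbol or synonym to 34 of the 38 rows (32 genes), in the GRCr8 build. The stretch from 200 to 51 bases before the start site is printed on the gene's own strand. Capitals mark the nuclear receptor core TGAACT, on either strand, and the HNF4-type letters CAAAGTCCA. Cyp3a2 (chr12:14343908-14344057, minus strand), Cyp3a23/3a1 (chr12:14398854-14399003, minus strand) and Cyp3a18 (chr12:13994112-13994261, plus strand) read:
Cyp3a2: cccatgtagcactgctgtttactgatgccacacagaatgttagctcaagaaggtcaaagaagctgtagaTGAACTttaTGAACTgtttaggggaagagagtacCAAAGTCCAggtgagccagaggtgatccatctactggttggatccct
Cyp3a23/3a1: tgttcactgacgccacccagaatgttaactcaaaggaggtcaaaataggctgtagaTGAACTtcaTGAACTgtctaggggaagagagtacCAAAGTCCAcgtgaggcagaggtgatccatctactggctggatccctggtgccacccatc
Cyp3a18: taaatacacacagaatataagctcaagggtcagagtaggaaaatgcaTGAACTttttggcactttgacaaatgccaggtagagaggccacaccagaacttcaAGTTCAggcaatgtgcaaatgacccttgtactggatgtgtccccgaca

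Over the 250 bases before the start site, of which the printed stretch is a part, Cyp3a2 and Cyp3a23/3a1 were identical at 208 of 230 aligned bases (90.4%), and Cyp3a2 and Cyp3a18 at 157 of 204 (77.0%). Both Cyp3a2 and Cyp3a23/3a1 hold this core as a direct repeat (TGAACT, any 3 bases, TGAACT), the arrangement known to bind the pregnane X receptor. Over the same 250 bases, searched on both strands, 2 of 33469 promoters held that repeat (0.00598%), namely these. CAAAGTCCA was found in 0.338% of promoters and, among the 32 P450 genes, in these same 2. It starts 97 bases before the start site of Cyp3a2 and 110 bases before that of Cyp3a23/3a1. Single TGAACT cores were in 8 of the 32 genes and in 12.2% of promoters, and these overlap the repeat where it occurs. The motifs were chosen after the values were seen, and a match is a description of letters only. Each search took only the exact letters given, so sites spelled otherwise were not counted. The shares therefore do not measure how common receptor or HNF4 sites are among promoters.

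The Cyp2c subfamily, which holds sex-specific steroid hydroxylases of rat liver, had 4 of 6 tested rows without overlap between groups, all with sleep restriction higher. That held at 17.2% of all tested genes. Cyp2c11, the male-specific testosterone hydroxylase, measured 4029 and 3094 CPM under forced activity and 4052 and 4664 CPM under sleep restriction. Forced activity 1 and sleep restriction 1 were nearly equal. The log2 change was 0.29 (SE 0.21, 95% interval -0.17 to 0.75), with 0.0081 in replicate 1 and 0.59 in replicate 2.

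Cyp2c13, another male-predominant form, measured 2488 and 2230.2 CPM, then 2555 and 2946 CPM (ENSRNOG00000049464.2), a log2 change of 0.22 (SE 0.19). Its second row (ENSRNOG00000013241.7) held 0.9, 2.9, 4.3 and 0 counts and was under the filter. Cyp2c6v1 measured 2110 and 1321 CPM, then 2270 and 2415 CPM, and forced activity 2 was the one low library. Its log2 change was 0.45 (SE 0.24), or 0.14 without forced activity 2, and its row spans 174 kb. Cyp2c22 measured 1728 and 1567 CPM, then 2114 and 2100 CPM. It gave 0.36 (SE 0.19, interval -0.056 to 0.77) and had like values in replicate 1 (0.29) and replicate 2 (0.42).

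The remaining Cyp2c rows overlapped between groups. Cyp2c23, an epoxygenase also known from kidney, ranged from 1770.2 to 2054 CPM with a log2 change of -0.079 (SE 0.19). Cyp2c12, the female-specific counterpart of Cyp2c11, measured 48.5 and 16.6 CPM under forced activity and 32.2 and 57.0 CPM under sleep restriction. Its low libraries were forced activity 2 and sleep restriction 1, as for Cyp3a9, and these were the libraries with the high endothelial sums. Its log2 change was 0.50 (SE 0.47), with -0.54 in replicate 1 and 1.58 in replicate 2. The Cyp2c7 row was listed at 0 in every library.

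The summed Cyp2c reads came to 12335 and 10288 CPM in the controls, then 12802 and 14185 CPM in the sleep restriction libraries, a ratio of 1.19. Without forced activity 2 the ratio was 1.09. The median log2 change over the 6 rows was 0.023 within replicate 1 and 0.51 within replicate 2. Forced activity 2 had the lowest Cyp2c sum and sleep restriction 2 the highest, and the replicate numbers are not known to be pairs. The 4 tested Cyp3a rows had medians of 0.42 within replicate 1 and 0.80 within replicate 2. The contrast between the subfamilies was not tested.

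**Figure D3:**
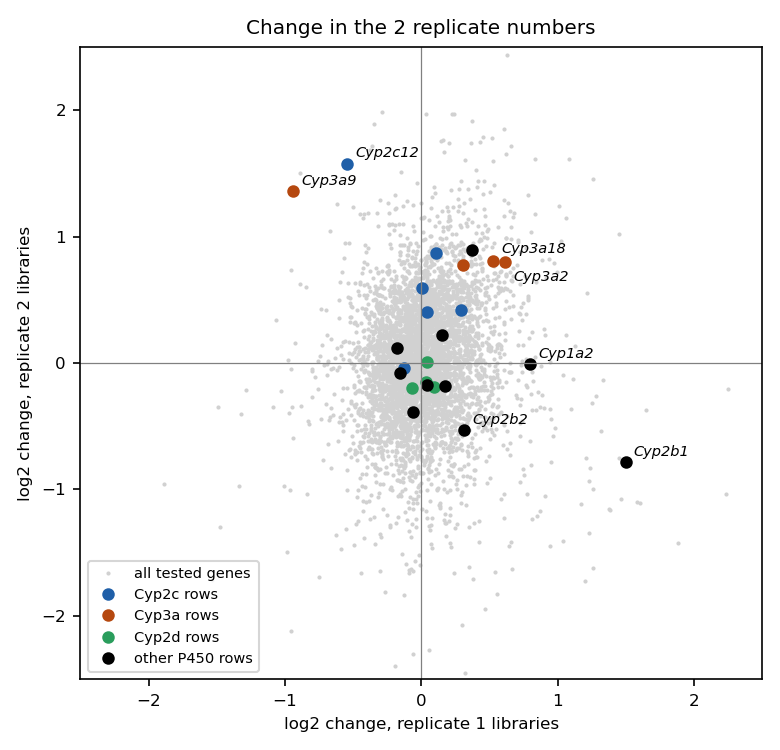
Log2 change within replicate 1 (horizontal) against that within replicate 2 (vertical) for tested genes (grey) and P450 rows (coloured), with 6 genes outside the axis limits of 2.5. Cyp3a2, Cyp3a18 and Cyp3a23/3a1 lie in the upper right. Cyp2c12 and Cyp3a9 lie at the upper left, and Cyp2b1 at the lower right at 1.499 and -0.78.

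Cyp2j10 had the smallest unadjusted p of the family (0.021 in edgeR). Cyp2j enzymes are known as fatty acid epoxygenases and hydroxylases. It measured 117 and 82.8 CPM under forced activity and 152 and 157 CPM under sleep restriction. The 2 sleep restriction libraries were nearly equal and above both controls. The log2 change was 0.64 (SE 0.24, 95% interval 0.12 to 1.17, adjusted p 0.978), with 0.37 in replicate 1 and 0.89 in replicate 2. With 1 library left out it ran from 0.40 (without forced activity 2) to 0.92 (without forced activity 1). The row spans 200.4 kb, and in the GRCr8 annotation further Cyp2j genes are its neighbours. Cyp2j4 measured 53.0 and 55.5 CPM, then 59.6 and 65.1 CPM, in the same direction at 0.21 (SE 0.24).

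The Cyp1a subfamily, induced by planar aromatic compounds through Ahr, was set apart by 1 library. Cyp1a2, the constitutive hepatic form that oxidises caffeine, measured 1312 and 1389 CPM under forced activity and 2283 and 1382 CPM under sleep restriction. Only sleep restriction 1 was high, and sleep restriction 2 lay between the controls. The log2 change was 0.44 (SE 0.24, interval -0.098 to 0.98) and it was 0.026 without sleep restriction 1. Cyp1a1, the inducible form, was under the filter with 0.9 and 0.8 counts, then 2.8 and 5 counts. The sums of 1.7 and 7.8 counts, rounded to 2 and 8, give a ratio of 4. The exact 95% interval, which takes the rounded values as reads drawn, runs from 0.798 to 38.7 and includes 1. Cyp1b1, a mainly extrahepatic form, held at most 0.5 counts in any library.

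The Cyp2b subfamily includes Cyp2b1 and Cyp2b2, the classical phenobarbital-inducible genes, and its rows did not share a direction. Cyp2b3 measured 1079 and 794 CPM, then 954 and 861 CPM, a log2 change of -0.044 (SE 0.21). Cyp2b2 measured 99.2 and 128 CPM, then 124 and 87.5 CPM (-0.11, SE 0.25). Cyp2b1 measured 25.2 and 38.2 CPM, then 79.2 and 20.3 CPM (0.62, SE 0.57), with 1.499 in replicate 1 and -0.78 in replicate 2. Sleep restriction 1 was the high library of Cyp2b1, and without it the log2 change was -0.67. The rn6 interval of the Cyp2b1 row is on chromosome 7, while those of the other Cyp2b rows are on chromosome 1. Whether the reads of this row come from the Cyp2b1 gene was not tested. For Cyp2b1 and Cyp2b2, forced activity 2 and sleep restriction 1 stood above the other libraries. The summed endothelial markers did so too, and their part in these values was not tested. The Cyp2b12 and Cyp2b21 rows were listed at 0.

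Cyp2e1, which oxidises ethanol and acetone and is known to respond to fasting and ketosis, was nearly level. It measured 5390.1 and 5364 CPM under forced activity and 5540.1 and 4751 CPM under sleep restriction. The 2 controls differed by 0.0072 on the log2 scale and the sleep restriction libraries by 0.22. The log2 change was -0.063 (SE 0.19), with a 95% interval of -0.48 to 0.36. Changes inside that range were not excluded with 2 libraries a group.

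The 4 Cyp2d rows, whose human counterpart metabolises many drugs, had log2 changes between -0.13 and 0.041. Cyp2d2 measured 1643 and 1392 CPM, then 1755 and 1223 CPM (-0.027, SE 0.22). The Cyp2d rows were all higher in replicate 1 than in replicate 2 within each group, by 0.042 to 0.30 under forced activity and 0.17 to 0.52 under sleep restriction on the log2 scale. Cyp2d5 was one of the 2 rows with sleep restriction lower in both libraries (226 and 219.9 CPM, then 216 and 191 CPM). Cyp2d genes lie side by side on chromosome 7, and how reads were divided among them was not tested.

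The single rows of other subfamilies differed by less than their error. Cyp2a3 measured 898 and 909 CPM, then 1014 and 799.7 CPM, with a log2 change of 0.0042 (SE 0.20) whose sign turned under other scalings (-0.0055 with DESeq2 size factors). Its interval spans 113 kb (rn6 chromosome 1, 83653234 to 83766484), and RefSeq places Cyp2a1 and Cyp2a2 next to Cyp2a3 in GRCr8. Cyp2a1 and Cyp2a2 were not analysed here as genes of their own, and whether this row holds their reads was not tested. Cyp2f4 measured 54.2 and 67.2 CPM, then 48.4 and 63.1 CPM (-0.12, SE 0.26). Cyp2t1, the other row with lower values in both sleep restriction libraries, measured 42.4 and 41.3 CPM, then 40.7 and 30.5 CPM (-0.22, SE 0.28). Without sleep restriction 2, its low library, the log2 change was -0.039. The Cyp2t1 interval overlaps that of Egln2.

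**Figure D4:**
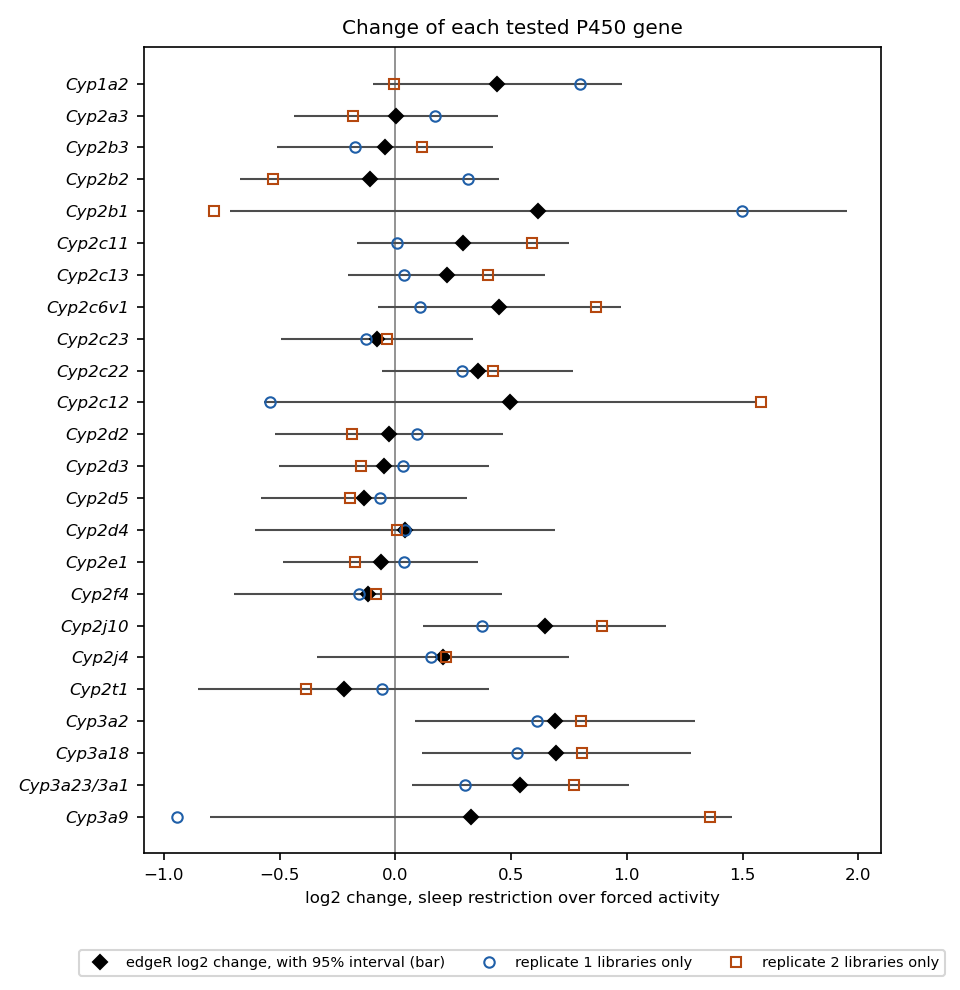
Log2 change of sleep restriction over forced activity for the 24 tested rows (diamonds) with 95% intervals (bars) and the values within replicate 1 (circles) and replicate 2 (squares). The intervals of Cyp2j10, Cyp3a2, Cyp3a18 and Cyp3a23/3a1 lie above 0 before adjustment for the number of genes. At Cyp2c12, Cyp2b1 and Cyp3a9 the circle and the square lie far apart on opposite sides of 0. They also lie on opposite sides at Cyp1a2, Cyp2a3, Cyp2b2, Cyp2b3, Cyp2d2, Cyp2d3 and Cyp2e1.

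The remaining 14 rows were too low to measure. Of these, 7 were listed at 0 in all 4 libraries (Cyp2ab1, Cyp2ac1, Cyp2b12, Cyp2b21, Cyp2c7, Cyp2g1 and Cyp2w1). Ribosomal protein genes such as Rpl8 and Rps6 were also listed at 0, so a 0 in this table is not read as absence of the transcript. The other 7 were Cyp1a1, Cyp1b1, Cyp2r1, Cyp2s1, Cyp2u1 and the second rows of Cyp2c13 and Cyp3a9, with at most 11 counts in any library. Cyp2r1, the vitamin D 25-hydroxylase, held 2.4, 1, 2.5 and 2 counts.

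The libraries of a group differed from each other at these genes by slightly wider median gaps than at all tested genes. The median absolute log2 gap over the 24 rows was 0.29 between the forced activity libraries and 0.34 between the sleep restriction libraries. Over all tested genes the same gaps were 0.25 and 0.29, and the genes were not matched for abundance. The widest gaps were at Cyp2c12 under forced activity (1.37, replicate 1 higher) and Cyp2b1 under sleep restriction (1.77, replicate 1 higher).

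Electron donors and haem enzymes that serve the P450s were given from a fixed list of 17 genes, of which 15 were tested. None passed over all genes in edgeR. Por, the reductase, measured 623 and 577 CPM under forced activity and 674 and 490.4 CPM under sleep restriction (-0.043, SE 0.21). Cyb5a, the cytochrome b5 of the endoplasmic reticulum, measured 1341 and 1449 CPM, then 1359 and 1386 CPM (-0.024, SE 0.18). Alas1, the rate-limiting enzyme of hepatic haem synthesis, measured 194 and 186 CPM, then 242 and 293 CPM. Both sleep restriction libraries of Alas1 were above both controls, with a log2 change of 0.49 (SE 0.21, unadjusted p 0.039 and adjusted p 0.978 in edgeR). The median over the 15 genes was -0.024.

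Of 18 listed regulators 14 were tested, and none passed either. Over both lists 5 of 29 tested genes had an unadjusted p under 0.05, 3 higher (Hnf4a, Bcl6, Alas1) and 2 lower (Ahr, Foxa2), against 4.25% of all tested genes. Hnf4a, a nuclear receptor that maintains hepatocyte expression, measured 439 and 482 CPM under forced activity and 669 and 826 CPM under sleep restriction. The groups did not overlap, and the log2 change was 0.70 (SE 0.20, 95% interval 0.25 to 1.14), with an unadjusted p of 0.0057 and an adjusted p of 0.978 in edgeR. Bcl6, a repressor known to act in sex-specific liver expression, measured 26.9 and 17.3 CPM, then 38.7 and 69.2 CPM. Its log2 change was 1.26 (SE 0.37, unadjusted p 0.0064 in edgeR), and 0.46 in replicate 1 against 1.79 in replicate 2. Foxa2, a pioneer factor of liver genes, measured 63.8 and 40.9 CPM, then 23.8 and 34.6 CPM (-0.81, SE 0.33).

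The listed regulators did not share a direction, with a median of 0.24 over the 14. Nr1i2, the pregnane X receptor, measured 193 and 239 CPM, then 169 and 144 CPM (-0.46, SE 0.22). Nr1i3, the constitutive androstane receptor, measured 110.2 and 144 CPM, then 107 and 59.0 CPM (-0.61, SE 0.29), and only sleep restriction 2 was clearly low. Ahr measured 54.9 and 55.1 CPM, then 36.8 and 32.6 CPM. The 2 Ahr controls were nearly equal and both sleep restriction libraries lay below them, with a log2 change of -0.66 (SE 0.27, unadjusted p 0.032 in edgeR). None of the 3 passed the adjustment (0.978 each). Their dimer partners had positive log2 changes that did not pass either. Rxra, the partner of Nr1i2 and Nr1i3, measured 133 and 67.0 CPM, then 180 and 134 CPM (0.66, SE 0.31). Arnt, the partner of Ahr, measured 22.9 and 12.7 CPM, then 28.5 and 20.3 CPM (0.49, SE 0.42).

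**Figure D5:**
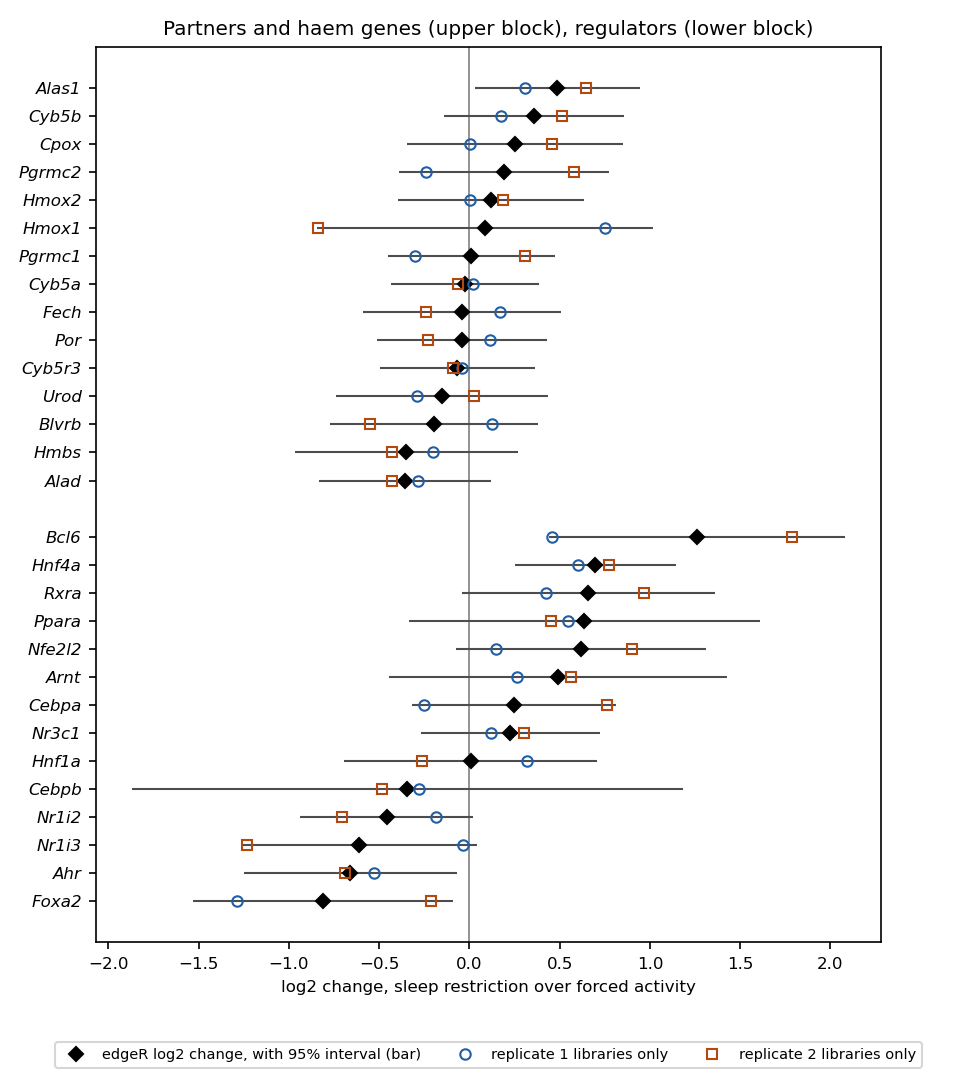
Log2 change with 95% interval (diamond and bar) and the values within replicate 1 (circle) and replicate 2 (square) for 15 partner and haem genes (upper block) and 14 regulators (lower block). Hnf4a, Bcl6 and Alas1 have intervals above 0 and Ahr and Foxa2 below 0, before adjustment for the number of genes.

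P450 genes such as Cyp1a2 and Cyp2e1 are known to be concentrated around the central vein, so markers of the liver's zones were set beside them. The summed pericentral markers, 5 of 8 tested, were 3072 and 2334 CPM under forced activity and 2404 and 2338 CPM under sleep restriction. The summed periportal markers, 8 of 8 tested, were 6336 and 6374 CPM, then 8226 and 5846 CPM. Forced activity 1 was the high library of the first sum and sleep restriction 1 of the second, and none of these markers was at 0. Of the 12 endothelial markers, 11 had a row and none of these was at 0, while Pecam1 had no row under that symbol. Macrophage markers, 10 of 11 tested, ran from 655 to 846 CPM under forced activity and from 694 to 1029 CPM under sleep restriction. The summed red cell markers were 864 and 1780.3 CPM, then 1174 and 679.6 CPM. Their part in the P450 values was not tested.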

How the data were processed

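The deposited file holds estimated counts for Ensembl genes in 4 rat liver libraries, with symbols and intervals. CASAVA, STAR 2.4.1d and rn6 are named, per the submitters' processing notes, without their roles. The name of the deposited table speaks of sense counts, a minimum and an average of 10. The labels do not explain these words or name a counting tool. In 3 libraries values are multiples of 0.1, and in sleep restriction 2 all but 1 are whole, with near-equal totals in all 4. A mean over repeated draws to a common depth in those 3 libraries would look like this, but no source used here states it, and their original depth is unknown.

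After rounding, values were tested in R 4.3.3 with edgeR 4.0.16 (TMM factors, filterByExpr with a minimum count of 10, robust quasi-likelihood, Benjamini-Hochberg adjustment over 4986 genes, threshold 0.05). The code was tested on simulated data. The SE is the absolute log2 change divided by the root of the F statistic, and 95% intervals follow from it. Changes within a replicate number use a prior count of 2. Alternatives used DESeq2 1.42.0, limma 3.58.1 (voom), other scalings and filters, a replicate block and each library left out. Chi-square over its degrees of freedom was 2.73 and 2.87 between the libraries of each group, and each library was kept as its own. That value cannot tell separate animals from separate preparations of the same animal.

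Members, gene lists and rules were chosen with earlier results of these data known. Members given per library are the most abundant tested row of each subfamily, the 12 tested rows with the smallest p and a fixed set of well-known genes. Cyp2c23, Cyp2d5, Cyp1a1, Cyp1b1, Cyp2r1, Foxa2, LOC100910877, Egln2, Rxra and Arnt were added after their values were seen.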

Additional observations from a re-analysis of the deposited data

How the results depend on the processing

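No P450 row and no listed partner or regulator was called in any of the 15 alternatives, where the smallest adjusted p of a member was 0.280 (Cyp3a2, replicate block). The count of called genes in the whole table, 1, was 0 without a gene filter, with limma-voom and without robust estimation, and 0 to 0 when libraries were left out in turn. A group reduced to 1 library borrows its spread from the other group. The labels do not say what a replicate number shares, so the numbers were not taken as pairs. The deviations of same-numbered libraries correlated at 0.207 over 4986 genes and at -0.484 over the 24 P450 rows. The replicate block gave 11 genes, 0 of them P450 rows.

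The median log2 change of the tested rows was 0.097 without a gene filter and 0.094 with DESeq2, each over 30 rows, and 0.016 to 0.25 when libraries were left out in turn. The Cyp2a3 change turned to -0.0055 with DESeq2 size factors, -0.013 with upper quartile factors, -0.0068 with total counts, -0.025 without a filter, -0.029 with 5 CPM in 2 libraries, -0.026 with DESeq2, -0.0058 with limma-voom and -0.0052 with the replicate block. With each library left out, signs turned at Cyp2a3 (-0.18 to 0.16), Cyp2b1 (-0.67 to 1.28), Cyp2b2 (-0.39 to 0.11), Cyp2b3 (-0.26 to 0.19), Cyp2c12 (-0.13 to 1.51), Cyp2d2 (-0.32 to 0.20), Cyp2e1 (-0.19 to 0.036), Cyp2f4 (-0.32 to 0.046), Cyp3a9 (-0.59 to 0.97), Por (-0.30 to 0.16) and Cyb5a (-0.077 to 0.027). The cause was not tested. Single-row changes were not followed in this way for Cyp2c23, Cyp2d3, Cyp2d4 and Cyp2d5. Their absence from this list does not mean a stable sign. With 2 libraries a group, small changes cannot be detected.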
